A study of Rattus norvegicus with 24 samples.

Results

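The expression of 50 genes of the pre-mRNA splicing machinery was followed in the blood of rats that received LPS, oat beta-glucan or both. They were the genes on the array whose symbol begins with Srsf, Sfrs, Snrp, Sf3a, Sf3b, Hnrnp or Hnrp, and each was represented by its brightest probe in the Cy3 channel. The symbols matched 75 of 30367 probes that are not controls and gave 50 genes, namely 19 hnRNP genes, 12 genes of snRNP proteins, 11 SR protein genes and 8 genes of SF3a and SF3b subunits. The rule used symbols and brightness only.

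Introns are removed by the spliceosome, which is assembled from small nuclear ribonucleoprotein particles (snRNPs) on each new transcript. The Sm proteins and the particle-specific snRNP proteins form these particles, and SF3a and SF3b are parts of the U2 particle, which recognises the branch point of the intron. SR proteins mostly bind exonic enhancers and favour the use of nearby splice sites, whereas hnRNPs coat the transcript and many of them oppose that use, so that the balance of both families sets alternative splicing, as in lymphocytes that become activated.

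The rats were male Sprague-Dawley rats, given as 8 weeks old, and each of the 24 arrays held blood RNA of 1 rat. The labels gave 6 groups of 4. C-G0 (control diet), C-G1 (diet with beta-glucan of high molecular weight) and C-G2 (diet with beta-glucan of low molecular weight) received no LPS, and LPS-G0, LPS-G1 and LPS-G2 had the same diets and LPS at 10 mg/kg to induce enteritis. The diets were fed for 6 weeks, and by the study's methods blood was taken at the end of the feeding. The same methods give saline injections for the groups without LPS. The blood was not separated into cell types, so fewer cells of a type and less RNA per cell cannot be told apart. The labels of 2 arrays were in conflict. LPS-G0 replicates 3 and 4 are LPS-treated by their titles and sources but control animals by their inflammation field, and they were kept in LPS-G0. Values without them are also given for Sf3a2 in LPS-G1 vs. LPS-G0. They are given too for the medians and calls over the splicing genes where LPS-G0 is compared with 1 other group.

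The arrays lay on 3 slides of 8, each slide with all 6 groups. By the labels the rat RNA was in Cy3 and a pool of rat RNA in Cy5, whereas the study's methods name the dyes the other way round. With the dyes of the methods every sign below would turn. Among 7074 probes above background in both channels on every array, the SD within groups was larger in Cy3 for 95.3%, with a median of 0.383 in Cy3 and 0.257 in Cy5, and the same held for 31 of 33 splicing genes among them. Values below are therefore log2 of Cy3 over Cy5, so that 0 is the level in the pool, a positive value is above the pool, and 1 unit is a 2-fold difference. Between 7786 and 15385 probes per array were above background in Cy3. All 8 erythroid markers were above background on all 24 arrays, as were 4 of 4 tested B cell markers and 5 of 7 tested T cell markers. Cd28 and Klrb1 were above background on no array.

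The probes show the sequence features of the families. The first 3 below are rich in codons for serine and arginine (in capitals), the residues that give the SR proteins their name. The last 2, of 2 hnRNPs, are rich in glycine codons (in capitals). Where the probes lie in the proteins was not looked up. Each is a probe of 60 bases written 5′ to 3′, read in the open frame with most such codons.
Srsf2: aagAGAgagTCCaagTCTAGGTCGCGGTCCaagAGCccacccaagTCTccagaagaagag
Srsf7: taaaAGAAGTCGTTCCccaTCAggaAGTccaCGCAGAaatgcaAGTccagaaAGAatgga
Srsf10: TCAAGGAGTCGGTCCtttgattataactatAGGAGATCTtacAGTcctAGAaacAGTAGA
Hnrnpa2b1: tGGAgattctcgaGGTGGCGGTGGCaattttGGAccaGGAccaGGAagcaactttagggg
Hnrnph3: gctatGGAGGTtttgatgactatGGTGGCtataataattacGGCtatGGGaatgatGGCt
Serine and arginine codons made up 9 of 20 codons of the Srsf2 probe, 10 of 19 of the Srsf7 probe and 12 of 20 of the Srsf10 probe. Glycine codons made up 8 of 19 in Hnrnpa2b1 and 7 of 19 in Hnrnph3. On the rn4 assembly the probes were placed by the array annotation at chr10:106955763-106955822 (minus strand), chr6:3098739-3099576 (minus strand), chr5:154644783-154645171 (plus strand), chr4:79702821-79702880 (minus strand) and chr20:25356176-25356235 (minus strand), in that order. The Srsf7 and Srsf10 probes span 838 and 389 bases there, more than their 60 bases, since their ends lie on different sides of a gap.

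Of the 50 genes, 43 had a probe above background on all 4 arrays of at least 1 group and were tested, 33 of them above background on all 24 arrays. They were 18 hnRNP genes, 10 genes of snRNP proteins, 9 SR protein genes and 6 SF3a and SF3b genes. The other 7 were not tested. Hnrnpll, which controls Cd45 exon choice in lymphocytes, was above background on 0 of 24 arrays, like Snrpf, Snrpn and Srsf12. Sf3b4 was above background on 5, Srsf1 on 11 and Sf3a1 on 14 arrays. No array had a saturated spot of these genes.

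Part of the splicing genes moved together from array to array. Over the 24 arrays, the 903 pairs among 43 genes had a median r of 0.334, with 322 pairs over 0.5 and 241 under 0. All arrays share the pool and groups of arrays share a slide, so these values are a description. They were not set beside those of other probes. Each gene was also set against the median of the other 42, over the same 24 arrays. Of these, 15 genes had r over 0.8, led by Hnrnpa3 (0.958), Hnrnph1 (0.92), Hnrnpab (0.911), Hnrnpa1 (0.909) and Sf3b1 (0.908). In 5 genes r was under 0, namely Sf3a2 (-0.618), Srsf2 (-0.476), Hnrnpul1 (-0.438), Snrpd2 (-0.269) and Snrpa (-0.251). Snrpb, a core Sm protein above background on all 24 arrays, varied least, with an SD of 0.132 over the arrays. Hnrnph3 varied most, with an SD of 0.613, but was above background on only 14 of 24 arrays.

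**Figure D1:**
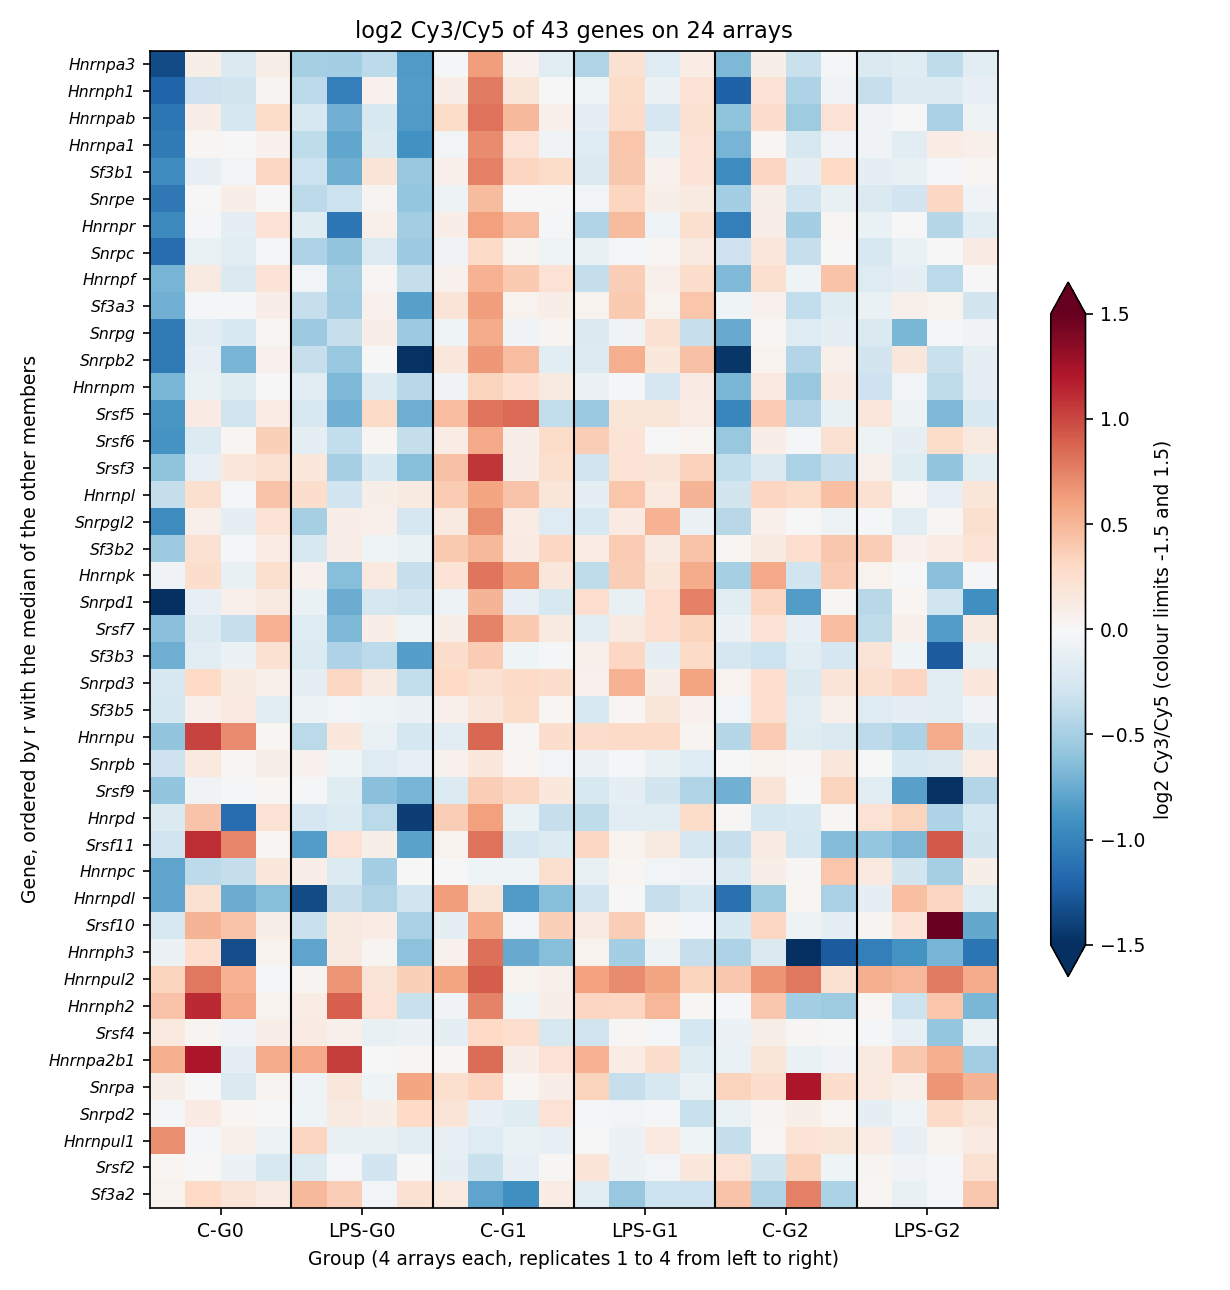
log2 Cy3/Cy5 of the 43 splicing genes tested (rows, ordered by r with the median of the other genes) on 24 arrays (columns, 4 per group, replicates 1 to 4 from left to right), red above and blue below the pool. C-G0 replicate 1 is blue and C-G1 replicate 2 red in most upper rows, and Sf3a2 in the last row runs against them.

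The median over the 43 genes was computed on each array. It averaged -0.12 ± 0.32 (SD, n = 4) in C-G0, -0.21 ± 0.15 in LPS-G0, 0.20 ± 0.26 in C-G1, 0.06 ± 0.13 in LPS-G1, -0.094 ± 0.21 in C-G2 and -0.082 ± 0.031 in LPS-G2. Array by array these groups overlapped, except that all 4 medians of C-G1, from 0.069 to 0.58, lay above all 4 of LPS-G0, from -0.36 to -0.0045, and of LPS-G2, from -0.12 to -0.055. Single arrays weighed on the groups without LPS. C-G0 replicate 1 had a median of -0.60, and C-G1 replicate 2 had 0.58, whereas the other C-G1 arrays had 0.069 to 0.079.

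**Figure D2:**
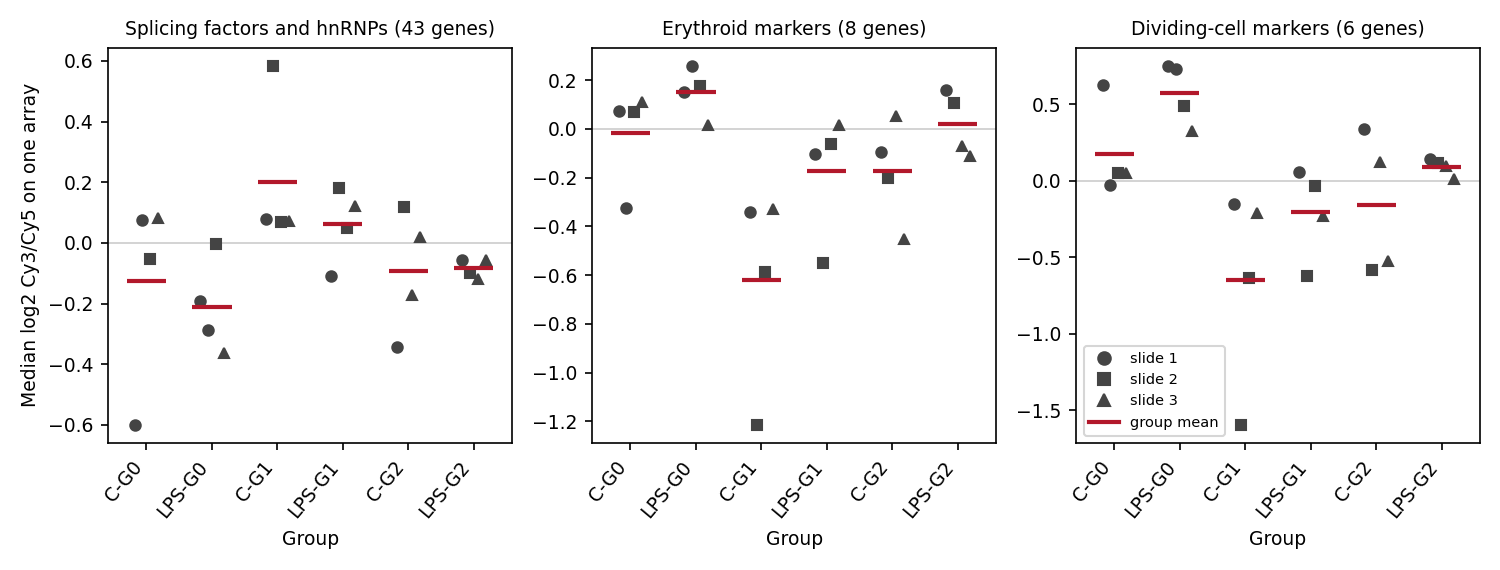
Median log2 Cy3/Cy5 on each array (points, the marker shows the slide) by group, of the 43 splicing genes (left), 8 erythroid markers (middle) and 6 markers of dividing cells (right), with the mean of each group of 4 (red line). C-G1 replicate 2 is the highest array on the left (0.58) and the lowest in the other panels (-1.21 and -1.60), and C-G0 replicate 1 (-0.60) is the lowest on the left.

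The effect of LPS on the control diet was measured by LPS-G0 vs. C-G0. No splicing gene was called by limma at an adjusted p under 0.05, where 0.0097% of all probes tested were called, and 0 had an unadjusted p under 0.05, against 15.2% of all probes. The median over the 43 genes was -0.11, beside 0.03 over all probes, with 36 genes below 0 and 7 above. By family, 17 of 18 hnRNP genes were below 0 (median -0.16), 9 of 9 SR genes (-0.12), 5 of 6 SF3a and SF3b genes (-0.093) and 5 of 10 snRNP genes (-0.025).

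Srsf11, an SR-related protein, was lowest in this comparison. Its values were -0.84, 0.21, 0.086 and -0.80 in LPS-G0 and -0.30, 1.11, 0.74 and 0.026 in C-G0, so that the groups overlapped. The difference was -0.73 ± 0.36 (SE), with an adjusted p of 0.35 in limma. Its second probe, above background on 24 arrays, gave -0.11 and followed the first with r = 0.129. Hnrnpu, a scaffold attachment factor, differed by -0.45 (adjusted p 0.475 in limma) and Hnrnpa1 by -0.33 (adjusted p 0.526). The 3 genes highest in LPS-G0 by p were Hnrnpc, which binds uridine tracts, with 0.19, Snrpa of the U1 particle with 0.18, and Sf3a2 with 0.098, with adjusted p of 0.683, 0.683 and 0.806 in limma.

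These differences rested in part on single arrays. Without C-G0 replicate 1, Hnrnpa3 and Hnrnpa1 were called, in a fit where 842 probes were called higher and 294 lower of 10338, and the median over the 43 genes was -0.28. Without C-G0 replicate 2 it was -0.035. Leaving out LPS-G0 replicates 3 and 4 gave a median of -0.085, with 10 genes above 0 and 0 called. Within slides the median was 0.0092, -0.024 and -0.56. Markers of cytotoxic T and NK cells had a median of 0.98 in this comparison, 6 of 6 tested above 0 and 0 called, and their median per array ran from -0.047 to 0.63 in LPS-G0 and from -1.55 to -0.062 in C-G0. Neutrophil markers had a median of -0.55, 5 of 5 below 0, with 0 called and 3 lower at an unadjusted p under 0.05, and markers of dividing cells 0.23, 6 of 6 above 0. The part of these cells in the differences of the splicing genes was not tested.

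Beta-glucan of high molecular weight in rats given LPS was tested in LPS-G1 vs. LPS-G0. Limma called 1 of 43 splicing genes, a smaller share than of all probes. That gene, Sf3a2, the SF3a subunit that helps to anchor the U2 particle at the branch point, was lower. Its call was lost in most fits that left out 1 array. Most other splicing genes were higher on average without passing the test. Over 43 genes the median was 0.33, beside 0.06 over all probes, with 37 genes above 0 and 6 below. Of those above 0, Hnrnpdl, Hnrnph3, Hnrpd and Srsf9 passed the filter only through LPS-G1, so they add no support for higher values there. Limma called 1 gene lower, where 8.39% of all probes were called lower, and 0 genes higher, where 0.543% were. At an unadjusted p under 0.05, 7 genes were higher and 1 lower, against 7.59% and 19.3% of all probes. The groups did not overlap for 4 genes that were higher (Hnrnpa1, Sf3b2, Sf3b3 and Snrpc) and 1 that was lower (Sf3a2), against 7.3% and 14.6% of all probes. With the 7 genes that were not tested, 42 of 50 differences of the group means were above 0, with a median of 0.31. Among the 33 genes above background on every array, 29 were above 0, with a median of 0.33. Leaving out LPS-G0 replicates 3 and 4 gave a median of 0.35 over the 43 genes, with 34 above 0 and 0 called.

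**Figure D3:**
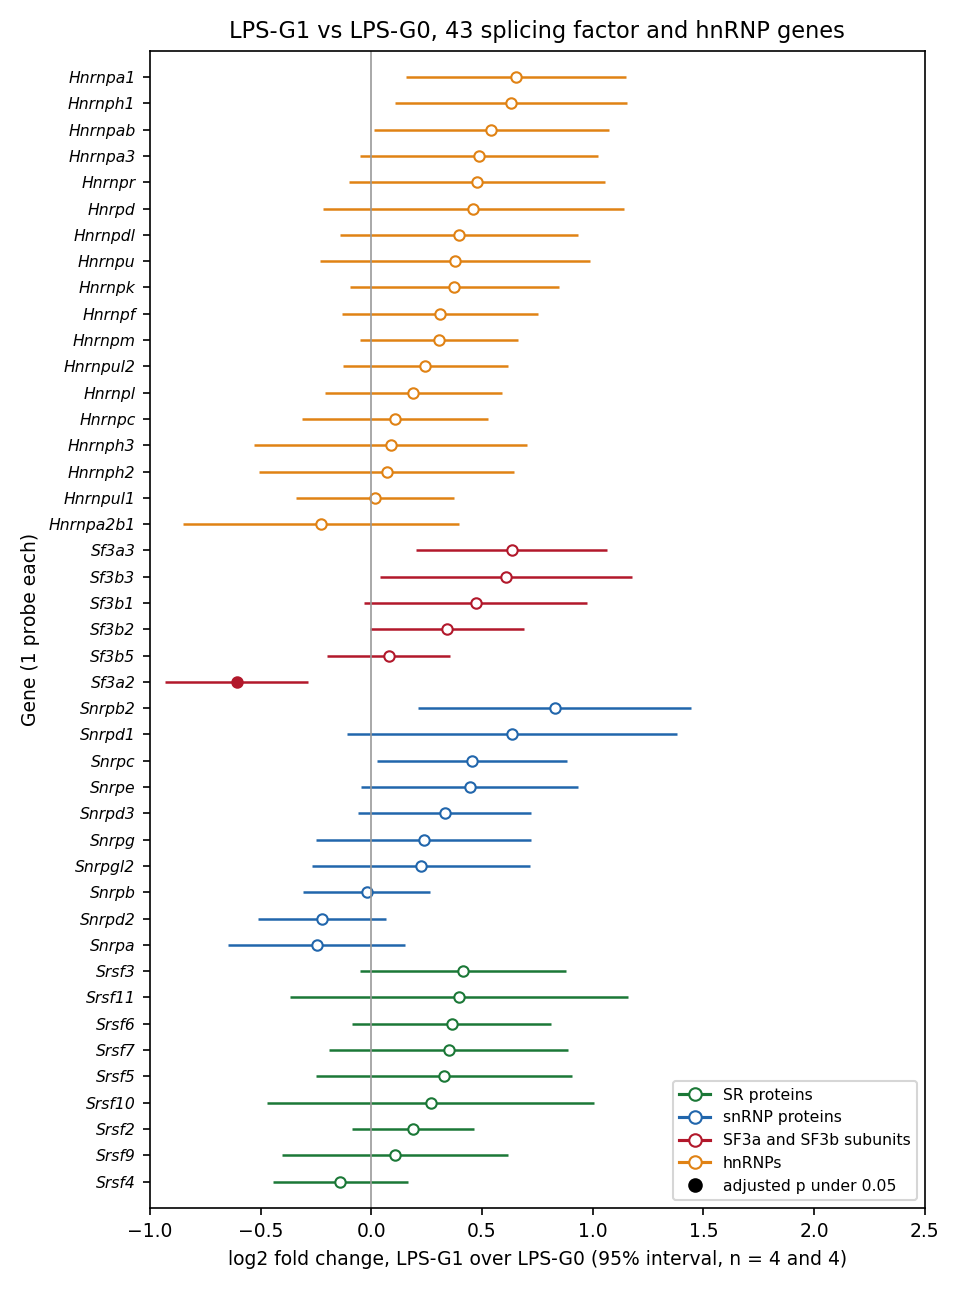
log2 fold change, LPS-G1 over LPS-G0, of the 43 splicing genes tested (n = 4 and 4, lines are 95% intervals from limma), grouped by family, with a filled point for an adjusted p under 0.05. The filled point is Sf3a2 at -0.61, and 37 of 43 points lie to the right of 0.

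Sf3a2 values were -0.17, -0.56, -0.33 and -0.32 in LPS-G1, and 0.49, 0.37, -0.043 and 0.23 in LPS-G0. All 4 LPS-G1 arrays lay below all 4 of LPS-G0. The means were -0.35 ± 0.16 and 0.26 ± 0.23 (SD, n = 4 each). Sf3a2 was lower by 0.61 ± 0.15 (SE) on the log2 scale, with a 95% interval from -0.93 to -0.29 and an adjusted p of 0.0289 in limma. The exact permutation test over 70 arrangements gave a two-sided p of 0.0286, the smallest that 4 against 4 arrays can give. Groups that do not overlap always give this p, so it adds nothing to the lack of overlap. The difference had this direction on each slide, with -0.60, -0.40 and -0.55, and with the slide as a block it was -0.55 (adjusted p 0.0529 in limma). Without LPS-G0 replicates 3 and 4 it was -0.78, with an adjusted p of 0.13. Leaving out each array in turn gave -0.71 to -0.53 with adjusted p from 0.0186 to 0.105, and the call was kept in the fits that left out replicate 3 of LPS-G0 or replicate 1 of LPS-G1, and lost in the other 6. Without LPS-G0 replicate 3, Hnrnph1, Snrpb2 and Sf3a3 were called besides Sf3a2, in a fit where 126 probes were called higher and 966 lower of 10872. Another Sf3a2 probe was above background on 15 of 24 arrays and was not tested. Its means differed by -0.22 in the same comparison.

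The other SF3 genes stood on the other side of 0. Sf3a3, a partner of Sf3a2 in SF3a, had 0.048, 0.39, 0.05 and 0.42 in LPS-G1 and -0.34, -0.52, 0.059 and -0.82 in LPS-G0. LPS-G0 replicate 3 lay among the LPS-G1 arrays and the other LPS-G0 arrays lay below them. The difference was 0.63 ± 0.20 (SE), with an adjusted p of 0.0611 in limma. Sf3b3 had 0.075, 0.31, -0.14 and 0.29 in LPS-G1 and -0.21, -0.47, -0.40 and -0.83 in LPS-G0. Sf3b2 had 0.12, 0.38, 0.14 and 0.43 in LPS-G1 and -0.24, 0.11, -0.061 and -0.11 in LPS-G0. For both the groups did not overlap, but the adjusted p was 0.159 and 0.192 in limma. Sf3b1, the subunit that holds the branch point adenosine, differed by 0.47 ± 0.24 (SE, adjusted p 0.217 in limma). The family median was 0.41, with 5 of 6 tested genes above 0. Sf3a1, not tested, had means of -0.013 in LPS-G1 and -0.068 in LPS-G0.

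Among the genes of snRNP proteins, 7 of 10 were above 0, with a median of 0.28. Snrpb2, which binds U2 snRNA, had -0.21, 0.54, 0.15 and 0.43 in LPS-G1 and -0.34, -0.56, -0.0045 and -1.48 in LPS-G0. The difference was 0.83 ± 0.29 (SE, adjusted p 0.0835 in limma), and within slides it was 0.24, 0.35 and 1.91, the last with LPS-G0 replicate 4. Snrpc, a U1 protein that contacts the 5′ splice site, had -0.11, -0.024, 0.015 and 0.13 in LPS-G1 and -0.46, -0.59, -0.21 and -0.55 in LPS-G0. These groups did not overlap (adjusted p 0.162 in limma).

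Among the Sm proteins, Snrpd1 differed by 0.64 (adjusted p 0.254 in limma), and its second probe, above background on 13 of 24 arrays, by 0.027. Snrpe differed by 0.44, Snrpd3 by 0.33 and Snrpg by 0.24. Snrpb differed by -0.022 and Snrpd2 by -0.22 (adjusted p 0.299). Snrpa, the U1 protein that binds a loop of the U1 RNA, differed by -0.25 (adjusted p 0.399). Snrpg and Snrpgl2, near-identical copies, and Snrpd3, whose probe is annotated by a transcript model only, are uncertain as single genes.

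Among the hnRNP genes, 17 of 18 were above 0, with a median of 0.34. These include Hnrnpdl, Hnrnph3 and Hnrpd, which passed the filter only through LPS-G1. Hnrnpa1, which silences exons and acts against SR proteins, had -0.19, 0.42, -0.11 and 0.22 in LPS-G1 and -0.38, -0.78, -0.22 and -0.90 in LPS-G0. The groups did not overlap. The difference was 0.65 ± 0.24 (SE), with an adjusted p of 0.0898 in limma. The exact permutation p of 0.0286 follows from the lack of overlap. Hnrnph1, which binds runs of guanine, had -0.07, 0.28, -0.087 and 0.22 in LPS-G1 and -0.40, -1.03, 0.066 and -0.83 in LPS-G0 (adjusted p 0.117 in limma), and LPS-G0 replicate 3 lay among the LPS-G1 arrays.

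The remaining hnRNPs that were followed whatever their change were closer together. Hnrpd, an AU-rich element binding protein known as Auf1, differed by 0.46 and was above background on 2 of 4 LPS-G0 arrays. Hnrnpk, a poly-C binding protein, differed by 0.38, Hnrnpu by 0.38, Hnrnpf by 0.31, Hnrnpl by 0.19 and Hnrnpc by 0.11, with adjusted p from 0.285 to 0.734 in limma. Hnrnpa2b1, whose probe is printed above, was the hnRNP below 0. It had 0.53, 0.11, 0.27 and -0.18 in LPS-G1 and 0.57, 1.03, 0.00069 and 0.034 in LPS-G0. The arrays overlapped widely, and the difference was -0.23 ± 0.30 (SE, adjusted p 0.625 in limma).

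Among the SR genes, 8 of 9 were above 0, with a median of 0.33, and 0 were called by limma or had an unadjusted p under 0.05. Those above 0 include Srsf9, which passed the filter only through LPS-G1. Srsf3, the smallest SR protein, had -0.30, 0.22, 0.19 and 0.34 in LPS-G1 and 0.16, -0.50, -0.23 and -0.64 in LPS-G0, so that the groups overlapped. The difference was 0.41 ± 0.22 (SE, adjusted p 0.237 in limma), and its second probe gave -0.18 and followed the first with r = -0.167 over 24 arrays. Srsf7, which also acts in mRNA export, differed by 0.35, Srsf5 by 0.33 and Srsf2 by 0.19, with adjusted p from 0.351 to 0.437. Srsf1, the founding member of the family, was too dim to be tested. It had -0.85, 0.13, -0.33 and 1.13 in LPS-G1, above background on 3 of 4 arrays, and -1.28, -1.01, -0.29 and -2.68 in LPS-G0, above background on 1 of 4. A dim probe gives no exact difference, so no fold or p is given.

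**Figure D4:**
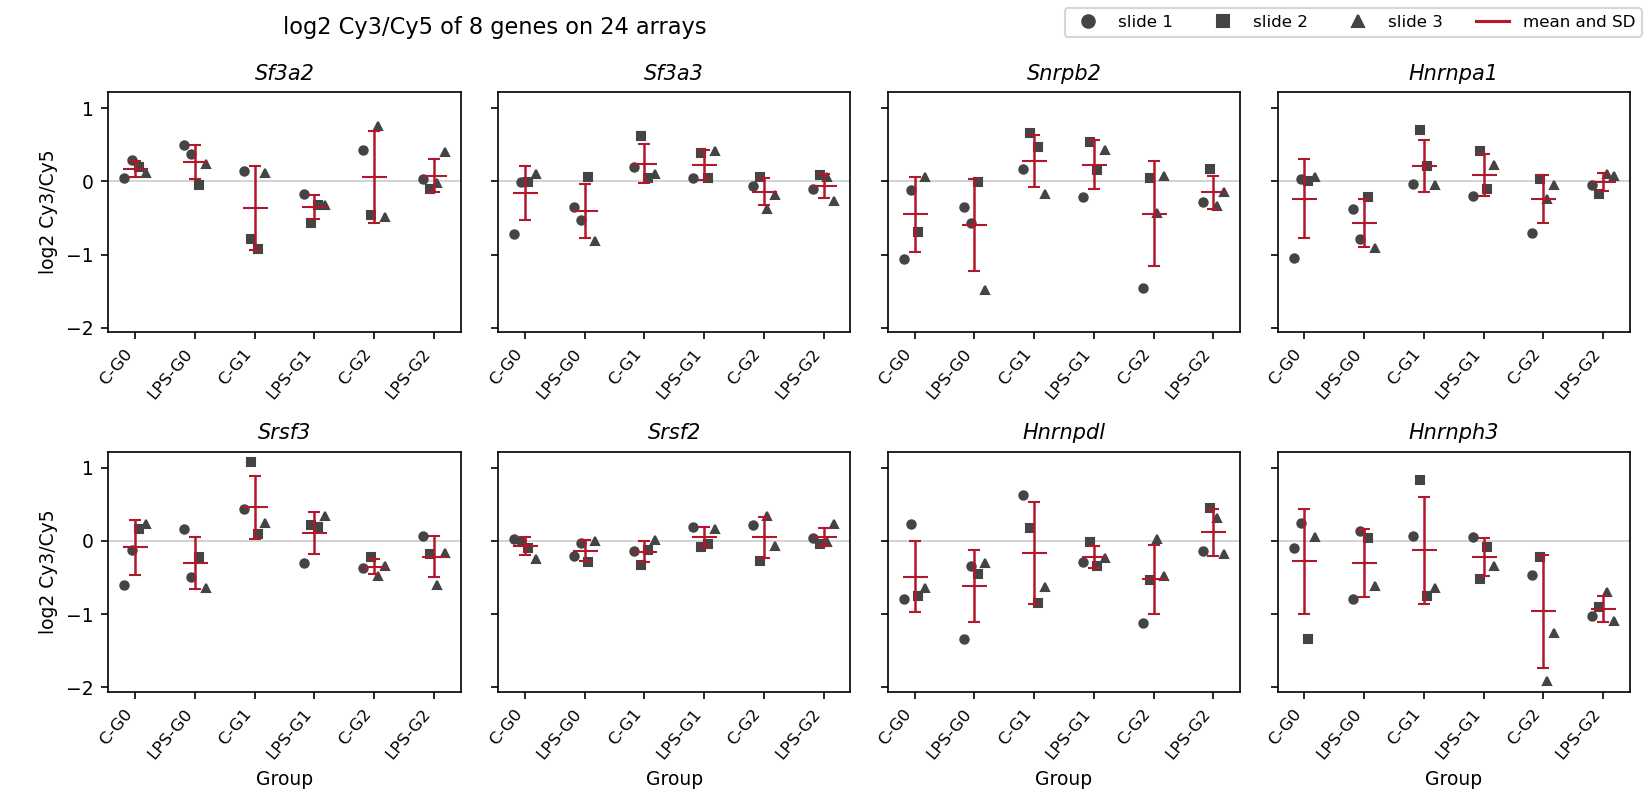
log2 Cy3/Cy5 of 8 splicing genes on each array (points, the marker shows the slide), by group, with the group mean and SD (red, n = 4). For Sf3a2 the 4 LPS-G1 arrays (-0.56 to -0.17) lie below the 4 LPS-G0 arrays (-0.043 to 0.49), and Srsf2 stays between -0.33 and 0.34 on all arrays.

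The wider splicing machinery was described by 85 further genes on the array, 62 of them tested. In LPS-G1 vs. LPS-G0 their median was 0.21, with 42 above 0 and 20 below, and limma called 0 of them. At an unadjusted p under 0.05, 7 were higher and 4 lower, against 7.59% and 19.3% of all probes. The 4 lower were Isy1 (-0.49), Prpf18 (-0.47), Bud31 (-0.47) and Lsm7 (-0.44), and the highest was Prpf4b, a kinase of the spliceosome, with 0.90 (adjusted p 0.106 in limma).

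Markers of other cells moved in the same comparison. Of 8 erythroid markers 2 were called lower, Epb42 (-0.93, adjusted p 0.0408 in limma) and Klf1 (-0.81, adjusted p 0.0289), with 5 of 8 below 0, 3 above and a list median of -0.22. Of 6 tested markers of dividing cells 2 were called lower, Tpx2 (-1.68, adjusted p 0.0374) and Ube2c (-2.50, adjusted p 0.0289), with a list median of -0.57. The median per array of the dividing-cell markers ran from -0.63 to 0.058 in LPS-G1 and from 0.33 to 0.75 in LPS-G0, and that of the erythroid markers from -0.55 to 0.017 and from 0.017 to 0.26. B cell markers had a median of 0.38 over 4 tested, T cell markers 0.24 over 7 and neutrophil markers 0.30 over 5, with 0 called. The part of these cells in the values of the splicing genes was not tested.

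Beta-glucan of low molecular weight in rats given LPS, LPS-G2 vs. LPS-G0, gave 0 splicing genes called by limma, as of all probes (0%). At an unadjusted p under 0.05, 2 genes were higher and 1 lower, where 8.23% of all probes passed in either direction. The median was 0.16, beside -0.02 over all probes, with 32 genes above 0 and 11 below, and without LPS-G0 replicate 4 it was 0.058. With LPS-G0 replicate 3 left out as well, the median was 0.18, with 31 genes above 0 and 0 called. Neutrophil markers had a median of 0.65 in this comparison, 5 of 5 above 0, with 0 called and 4 higher at an unadjusted p under 0.05. Markers of cytotoxic T and NK cells had a median of -0.50 and those of dividing cells -0.43, each with 6 of 6 below 0. Their part in the values of the splicing genes was not tested. The groups did not overlap for Hnrnpa1, Hnrnpa3 and Hnrnpdl, all higher, against 2.81% of all probes. Hnrnpa1 had -0.05, -0.17, 0.11 and 0.078 in LPS-G2, all above the LPS-G0 arrays given before, and differed by 0.56 ± 0.24 (SE, adjusted p 0.597 in limma), while its second probe, above background on 24 arrays, differed by 0.14. LPS-G1 and LPS-G2 were both set against the same 4 LPS-G0 arrays.

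Hnrnpdl, a relative of Hnrpd, had -0.13, 0.45, 0.32 and -0.18 in LPS-G2 and -1.34, -0.35, -0.46 and -0.30 in LPS-G0. It differed by 0.73 ± 0.25 (SE, adjusted p 0.597 in limma), but it was above background on 1 and 2 of the 4 arrays, and the difference was 0.26 with normexp background correction and 0.13 with Cy3 alone. Hnrnph3, whose glycine-rich probe is printed above, had -1.03, -0.90, -0.70 and -1.10 in LPS-G2 and -0.79, 0.13, 0.043 and -0.61 in LPS-G0, and the groups overlapped. It differed by -0.62 ± 0.29 (SE, adjusted p 0.597), also with 1 and 2 of 4 arrays above background, and by -0.13 with normexp.

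Snrpc differed by 0.40 and Srsf4 by -0.20, with adjusted p of 0.597 and 0.666 in limma. Srsf9 was not well above background on any LPS-G2 array and was on 2 of 4 in LPS-G0. It had -0.17, -0.81, -1.49 and -0.44 in LPS-G2 and -0.017, -0.19, -0.63 and -0.70 in LPS-G0, and the arrays overlapped (adjusted p 0.666 in limma).

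The beta-glucans were compared directly in LPS-G1 vs. LPS-G2. Limma called 0 splicing genes and 0% of all probes, and 1 gene was higher and 2 lower at an unadjusted p under 0.05, against 6.68% of all probes. The median was 0.16, beside 0.02 over all probes, with 34 genes above 0 and 9 below. Among the 33 genes above background on every array, 28 were above 0, with a median of 0.16. The groups did not overlap for Hnrnph1 and Hnrnph3, higher in LPS-G1, against 3.24% of all probes, and for Sf3a2, lower, against 3.41%. Sf3a2 had 0.03, -0.11, -0.024 and 0.40 in LPS-G2, all above the LPS-G1 arrays. The means were -0.35 ± 0.16 in LPS-G1 and 0.076 ± 0.23 in LPS-G2 (SD, n = 4), and the adjusted p was 0.679 in limma. The 95% interval of this difference, from -0.74 to -0.098, was that of limma before adjustment over probes. The gene counted as higher was Hnrnph3. All 4 arrays of LPS-G1 measured it above background but only 1 of LPS-G2 did, and it passed the filter through LPS-G1, where it is high, so its difference is a description. Srsf1 was not well above background on any LPS-G2 array, where it had -0.74, -0.74, -1.35 and -1.56.

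Without LPS, the beta-glucan of high molecular weight was compared in C-G1 vs. C-G0. Limma called 0 splicing genes, where 0.028% of all probes were called. At an unadjusted p under 0.05, 10 genes were higher and 0 lower, where 12.1% of all probes were higher and 15.8% lower. The 10 were Hnrnpab, Hnrnph1, Hnrnpm, Sf3b1, Sf3b2, Snrpb2, Snrpc, Srsf3, Srsf5 and Srsf6. The median over 43 genes was 0.34, beside 0.02 over all probes. The groups did not overlap for 1 gene, Hnrnpul1, which was lower, against 3.97% of all probes. Hnrnpab had 0.28, 0.82, 0.49 and 0.078 in C-G1 and -1.08, 0.10, -0.25 and 0.27 in C-G0 (adjusted p 0.139 in limma). The highest array was C-G1 replicate 2 and the lowest C-G0 replicate 1. Without C-G1 replicate 2 the count of 10 was 0 (5.16% of all probes) and the median 0.25, and without C-G0 replicate 1 the count was 0 (2.48%) and the median 0.18. Without C-G0 replicate 4 the count was 20 (18.8% of all probes) and the median 0.44, and with the replicate number as a block the count was 16 (14.6%).

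Sf3a2 had 0.14, -0.79, -0.92 and 0.11 in C-G1 and 0.047, 0.30, 0.20 and 0.12 in C-G0. The 2 C-G1 arrays on slide 2 were low and the others lay among those of C-G0 (adjusted p 0.181 in limma). Erythroid markers had a median of -0.82 in this comparison, 7 of 8 below 0, and markers of dividing cells -0.96, 6 of 6 below 0. On C-G1 replicate 2 the median of the erythroid markers was -1.21 and that of the dividing-cell markers -1.60, the lowest of all arrays. Their part in the values of the splicing genes was not tested.

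In C-G1 vs. C-G2 limma called 0 splicing genes and 0% of all probes. At an unadjusted p under 0.05, 8 genes were higher and 0 lower, where 5.33% of all probes were higher and 10% lower. When each array was left out, the count of genes that were higher changed. It ran from 1, without C-G1 replicate 2 or C-G2 replicate 3, to 12, without C-G2 replicate 2. Srsf3 had 0.44, 1.07, 0.095 and 0.24 in C-G1 and -0.36, -0.21, -0.47 and -0.35 in C-G2. The groups did not overlap for Srsf3 (adjusted p 0.323 in limma) and for Sf3b3, both higher, against 2.07% of all probes. Sf3a2 was the lowest by p in C-G1, with 0.43, -0.46, 0.76 and -0.48 in C-G2 (adjusted p 0.371 in limma), and the groups overlapped.

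In C-G2 vs. C-G0 limma called 0 splicing genes, where 0.028% of all probes were called. At an unadjusted p under 0.05, 2 genes were higher and 1 lower, against 13.3% of all probes in either direction. Snrpa had 0.33, 0.26, 1.22 and 0.27 in C-G2 and 0.087, -0.011, -0.22 and 0.039 in C-G0 (adjusted p 0.277 in limma). The groups did not overlap for this 1 gene, which was higher, against 1.34% of all probes. Hnrnph2 averaged -0.17 ± 0.45 in C-G2 and 0.54 ± 0.44 in C-G0 (SD, n = 4, adjusted p 0.293). The median over 43 genes was 0.033, beside 0.02 over all probes.

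The LPS effect was also measured on each beta-glucan diet. In LPS-G1 vs. C-G1 limma called 0 splicing genes, where 0.00934% of all probes were called, and 0 had an unadjusted p under 0.05, against 2.81% of all probes. The median was -0.11, with 35 of 43 genes below 0. The groups did not overlap for 1 gene, Hnrnpul1, which was higher, against 1.33% of all probes. Srsf9, lowest by p, averaged -0.28 ± 0.13 in LPS-G1 and 0.16 ± 0.26 in C-G1, and Srsf2, highest by p, averaged 0.057 ± 0.14 and -0.15 ± 0.14 (SD, n = 4, adjusted p 0.95 for both in limma).

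In LPS-G2 vs. C-G2 limma called 0 splicing genes and 0% of all probes, and 1 gene was higher and 1 lower at an unadjusted p under 0.05, against 1.09% of all probes. The gene that was higher, Hnrnpdl, was above background on 1 of 4 arrays in each group. The gene that was lower, Srsf9, was not well above background on any LPS-G2 array and had -0.72, 0.19, -0.0021 and 0.33 in C-G2, where 3 of 4 arrays were above background (adjusted p 1 in limma). The median was 0.029.

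The difference between LPS effects was tested as an interaction. The LPS effect on the G1 diet minus that on the control diet gave 0 splicing genes called by limma and 0% of all probes, and 0 genes at an unadjusted p under 0.05, against 3.01% of all probes. The smallest adjusted p was 0.999, for Hnrnpul1 and Snrpa among others. For the G2 diet the counts were again 0 called, 0% of all probes, and 0 at an unadjusted p under 0.05, against 5.57% of all probes, with an adjusted p of 0.832 for Hnrnpdl and Hnrnpc. The medians over 43 genes were -0.043 and 0.16.

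Probes of 1 gene did not always move alike. The 21 genes with several probes had 25 further probes, 15 of them tested. Of these, 13 had the sign of the probe used in LPS-G1 vs. LPS-G0, the exceptions being those of Srsf3 and Hnrnpr. Their r with the probe used, over 24 arrays, ran from -0.167 to 0.923, with a median of 0.453.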

How the data were processed

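Blood RNA of 24 rats was hybridised on 2-colour Agilent SurePrint G3 Rat arrays. The authors deposited the scanner output of each array, made with Agilent Feature Extraction (10.10.1.1 in the file headers, 10.7.3.1 in the submitters' processing notes). The deposited log10 ratios are processed Cy5 over processed Cy3, and the deposited intensities of both channels were background-subtracted and balanced between dyes by Lowess. The log10 ratios deposited for the series as a whole were the same, with 1511424 of 1511424 values identical.

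The sign was turned and the ratio put on the log2 scale. Control spots (4259) and outlier spots (679 to 1133 per array) were left out, and spots of 1 probe were averaged. A probe was tested if its Cy3 signal was well above background on every array of a group, in any group. Tests were made with limma 3.58.1 in R 4.3.3 (with data.table, version 1.17.8), on 10313 probes in the fit of 16 arrays (LPS groups and C-G0) and 10708 in the fit of all 24 arrays, used wherever C-G1 or C-G2 enters. P was adjusted by Benjamini-Hochberg over all probes tested, and a gene was called at an adjusted p under 0.05. Single genes also had an exact two-sided permutation test over 70 arrangements. The precision is limited by 4 arrays per group.

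The 50 genes, the marker lists and the list of other splicing genes were chosen with earlier results of these data known. Named with values were the genes called and those with the smallest p in each direction. Those were the first 3 in the comparisons of LPS-G0 with C-G0 and of either other LPS group with LPS-G0, and the first elsewhere. Values were also given for 20 genes set by name (Srsf1, Srsf2, Hnrnpa1 and others). Some of the genes whose groups did not overlap or whose pattern stood apart were given values too. Probe positions are on rn4, and 46 of 50 genes had a current RefSeq symbol.

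Other background corrections, filters, probe rules, blocks, fits and samples were tried as alternatives. The test was checked on simulated data. Deviations of same-numbered arrays from their group means had r from -0.257 to 0.241 among LPS groups and C-G0, and up to 0.537 where C-G1 or C-G2 enters, with no comparison in which every pair was over 0.1, and the labels tie no numbers to shared animals, so numbers were not used as pairs.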

Additional observations from a re-analysis of the deposited data

Results flagged for a closer look

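Within groups of 4 arrays, 1 array stood far from the other 3 (Dixon's test at the 95% level) in 16 of 180 groups examined, over 29 genes in 6 groups and the median of all 43 genes. That is 8.89%. The genes share the same arrays and some were named because their pattern stood apart, so this share cannot be set against a chance rate. C-G0 replicate 1 was low for Hnrnpa1 (-1.05), Sf3a3 (-0.71), Snrpc (-1.15), Srsf9 (-0.59) and Snrpd1 (-1.87). C-G0 replicate 2 was high for Hnrnpdl (0.23), C-G2 replicate 3 for Snrpa (1.22), and C-G1 replicate 2 for the median of the splicing genes (0.58).

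Among the LPS groups, LPS-G0 replicate 1 was low for Hnrnpdl (-1.34) and high for Hnrnpul1 (0.32), and LPS-G0 replicate 4 was low for Hnrpd (-1.42). LPS-G1 replicate 4 was low for Hnrnpu (0.046) and Snrpd2 (-0.33), and LPS-G1 replicate 1 was low for Srsf5 (-0.56). LPS-G2 replicate 3 was low for Hnrnpab (-0.48) and Hnrnpk (-0.63). The cause of these values was not tested.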

How the results depend on the processing

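The count of splicing genes called in LPS-G1 vs. LPS-G0, 1 as reported, was 2 (Sf3a2 and Sf3a3) with normexp background correction or a filter on every array, 11 with array weights (Sf3a2 lower, and Sf3a3, Sf3b1, Sf3b2, Snrpb2, Snrpc, Snrpe, Hnrnpa1, Hnrnpa3, Hnrnpab and Hnrnph1, in a fit that called 923 probes higher and 1977 lower of 10313), and 0 with Cy3 alone, no filter, the slide as a block, all 24 arrays in the fit, LPS-G0 replicates 3 and 4 left out, or the methods' 1-way analysis of variance with Tukey's test. It ran from 0 to 4 when each array was left out in turn. The adjusted p of Sf3a2 ran from 0.00183 to 0.331 over these alternatives and its direction held. In LPS-G0 vs. C-G0 the count of 0 was 1 (Hnrnpu) with array weights, which called 877 probes higher and 300 lower of 10313, and 0 to 2 when each array was left out. The median over the genes was 0.26 with Cy3 alone in LPS-G1 vs. LPS-G2, against 0.16, and 0.22 with array weights in the interaction for the G1 diet, against -0.043. Cy3 alone moved the median of all probes to 0.12 in LPS-G1 vs. LPS-G0.

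Some small differences turned sign. In LPS-G2 vs. LPS-G0, Srsf9 was 0.015 with normexp and Srsf4 was 0.017 with Cy3 alone. In LPS-G1 vs. LPS-G0 with Cy3 alone, Hnrnpa2b1 was 0.12 and Snrpb 0.024. When each array was left out, Snrpb ran from -0.059 to 0.026 and Hnrnpc from -0.0094 to 0.19. The cause was not tested. The replicate number as a block kept 1 splicing gene called in LPS-G1 vs. LPS-G0 (Sf3a2), while all probes called went from 56 higher and 865 lower to 96 and 1173. It gave 0 splicing genes called in each other comparison, while all probes called in C-G1 vs. C-G0 went from 0 higher and 3 lower to 87 and 513. The labels do not say that a number marks a shared animal or day. In C-G2 vs. C-G0 the median over the genes, 0.033, ran from -0.14 to 0.14 when each array was left out.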
